A study of Homo sapiens with 12 samples.

Results

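KIF3A, KIF3C and KIF5B encode heavy chains of kinesins, motor proteins that carry cargo along microtubules. The 3 genes were taken from the array by gene symbol, each through its brightest row over all 12 arrays, out of 14884 named genes. Each of the 3 has 1 row, so no choice between rows was needed. They were chosen by earlier results of these same arrays, namely their log2 differences between the groups within a list of kinesin, dynein and microtubule-binding genes. Those differences are therefore given as a description, with no test. The tested cells were HEK293 cells transfected with a synthetic mimic of miR-1825 (the mimic-1825 group, 6 arrays), and the controls were HEK293 cells transfected with AllStars Negative Control siRNA (6 arrays). HEK293 is a human embryonic kidney line transformed with adenovirus DNA. Both RNAs were given at 5 nM with the same lipid reagent, and total RNA was taken 24 h later. The series title gives the purpose as finding mRNAs that miR-1825, a microRNA linked to amyotrophic lateral sclerosis (ALS), acts on. Both groups received a transfected RNA, and untransfected cells were not analysed here. The labels do not state separate cultures, so the spread between arrays of a group may be technical.

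Kinesin-1, the motor of KIF5B, KIF5A and KIF5C, pairs heavy chains with the light chains KLC1 to KLC4 and moves mitochondria, lysosomes and vesicles towards the plus ends of microtubules. Kinesin-2 joins KIF3A with KIF3B or KIF3C, and the adaptor KIFAP3 links the KIF3A and KIF3B pair to cargo. It drives intraflagellar transport, which builds cilia, and also moves vesicles in axons. KIF3C and the KIF5A and KIF5C chains are known as motors of neurons, while KIF5B is made in most cell types. A microRNA pairs through its seed with matching sites in mRNAs and usually lowers their amount or translation.

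The transfected microRNA is shown because its seed sets which sites it can pair with. The sequences come from RefSeq on GRCh38.p14, where mature miR-1825 lies at chr20:32237830-32237847 on the plus strand, and the hairpin at chr20:32237795-32237847. Capitals mark the seed, bases 2 to 8, in the mature form, and the mature form in the hairpin.
hsa-miR-1825: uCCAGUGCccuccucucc
MIR1825 hairpin: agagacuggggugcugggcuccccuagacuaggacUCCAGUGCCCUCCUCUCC
The seed was CCAGUGC, and its reverse complement, the letters of a matching site, is GCACUGG. Among 2545 mature microRNA entries of that table this seed of bases 2 to 8 occurred only in miR-1825, in 1 entry. Its bases 2 to 7, CCAGUG, are shared by hsa-miR-199a-5p. Sites in the 3 kinesin mRNAs were not analysed here, because no transcript sequences were used.

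The promoters are shown because the 3 genes were grouped for a shared direction of difference. Each line is the 250 bases before the annotated start, all on the minus strand of GRCh38.p14, read 5′ to 3′ along the gene. Capitals mark CCAAT boxes (CCAAT), GC boxes (GGGCGG) and the NRF1 motif, with 1 free base, on both strands; no motifs overlapped. The positions are chr5:132737547-132737796 for KIF3A, chr2:25982498-25982747 for KIF3C and chr10:32056426-32056675 for KIF5B.
KIF3A: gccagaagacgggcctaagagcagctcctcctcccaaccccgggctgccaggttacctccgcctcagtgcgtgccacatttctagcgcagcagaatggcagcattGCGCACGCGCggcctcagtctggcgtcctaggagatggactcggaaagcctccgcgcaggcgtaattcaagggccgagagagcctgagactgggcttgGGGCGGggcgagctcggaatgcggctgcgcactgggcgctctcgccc
KIF3C: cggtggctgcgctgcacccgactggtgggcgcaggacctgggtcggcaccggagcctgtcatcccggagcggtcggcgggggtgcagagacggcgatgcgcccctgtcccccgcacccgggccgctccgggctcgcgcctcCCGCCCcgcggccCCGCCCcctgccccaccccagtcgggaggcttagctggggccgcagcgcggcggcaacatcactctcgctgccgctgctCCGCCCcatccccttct
KIF5B: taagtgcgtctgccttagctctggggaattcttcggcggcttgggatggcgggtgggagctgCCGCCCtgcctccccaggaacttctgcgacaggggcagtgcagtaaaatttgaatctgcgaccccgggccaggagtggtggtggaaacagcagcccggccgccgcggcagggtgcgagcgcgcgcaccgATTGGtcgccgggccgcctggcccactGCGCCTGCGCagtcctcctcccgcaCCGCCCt
KIF3A held 1 GC box, KIF3C held 3 and KIF5B held 2, and 42.6% of 35116 promoters of that length held at least 1. KIF5B alone of the 3 had a CCAAT box, which 32.0% of promoters had. The NRF1 motif stood at position -145 in KIF3A and -32 in KIF5B, counted from the start, and occurred in 5.07% of all promoters. None of the 3 held the TATA box TATAAA, which 10.7% of promoters had. Their GC content was 66.4% in KIF3A, 77.6% in KIF3C and 68.8% in KIF5B, against a median of 58.0% over all promoters. These are matches of letters in these windows and were not tested against the array values.

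The arrays resembled each other closely, with pairwise correlations between 0.988 and 0.994 over 53617 transcript clusters (sets of probes for a gene or transcript). Values are on a log2 scale, with array medians between 4.44 and 4.51. Only 6 clusters passed limma's test at an adjusted p of 0.05 over all clusters, 0.0112% of those tested. Of the brightest rows of the 14884 named genes, 0 passed. Clusters with several symbols were not counted as named. At an unadjusted p under 0.05 there were 5770 of all clusters, or 10.8%. The HEK293 markers with a named row, PAX2, VIM, KRT8 and KRT18, were 4 of 7 and all lay at or above the median of cluster means, 4.48. Of markers of other cells, 0 of 2 named leukocyte genes, 2 of 3 fibroblast genes, 3 of 6 epithelial genes and 4 of 5 neuronal genes did. Of all 14884 named genes 10698 did, so these counts alone do not identify a cell type. The mean log2 value of the neuronal markers was 5.44 to 5.51 over mimic arrays and 5.40 to 5.53 over control arrays. For the HEK293 markers it was 7.22 to 7.45 over mimic arrays and 7.35 to 7.54 over control arrays. For the epithelial markers it was 4.96 to 5.06 over mimic arrays and 4.97 to 5.13 over control arrays. A lower mean after the mimic was found for 5 of these 6, and for 7427 of all 14884 named genes. All 6 mimic arrays lay below the control mean for CLDN7, an epithelial claudin gene (log2 difference -0.22, limma adjusted p = 0.379), and for KRT18, a keratin gene among the HEK293 markers (log2 difference -0.10, limma adjusted p = 0.398). The part of any marker in the kinesin values was not tested, and fewer cells of a type and less RNA per cell cannot be told apart here.

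KIF3A, the subunit common to the main kinesin-2 motors, had the largest difference of the 3. Its log2 value ran from 8.27 over a median of 8.41 to 8.58 in mimic arrays, against 8.04, 8.17 and 8.27 in control arrays. The groups overlapped only through mimic replicate 4, which lay just under control replicates 3 and 4, and the other 5 mimic arrays lay above every control. The means were 8.42 ± 0.12 in mimic arrays and 8.18 ± 0.08 in control arrays (SD, n = 6 each). The log2 difference was 0.24 with an SE of 0.06 and a 95% interval from 0.10 to 0.37, or 1.18-fold. KIF3A has an annotated pseudogene, KIF3AP1, whose RNA might share probes with it, and single-probe intensities were not used here.

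KIF3C, a kinesin-2 heavy chain that can take the place of KIF3B beside KIF3A, was the dimmest and the most variable of the 3 rows. It ran from 6.43 over a median of 6.49 to 6.65 in mimic arrays, against 6.19, 6.35 and 6.61 in control arrays. The groups overlapped: control replicate 5, at 6.61, lay above 4 of the mimic arrays, control replicate 1, at 6.45, lay above 3, and only 2 mimic arrays exceeded all controls. The means were 6.52 ± 0.10 in mimic arrays and 6.36 ± 0.15 in control arrays (SD, n = 6 each). The log2 difference was 0.16 with an SE of 0.07, or 1.12-fold. Its 95% interval, from -0.00042 to 0.32, reached down to 0. Without control replicate 5 the log2 difference was 0.21.

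KIF5B, the widely made kinesin-1 heavy chain, had the smallest difference and the tightest arrays. Its log2 value ran from 11.42 over a median of 11.45 to 11.54 in mimic arrays, against 11.33, 11.39 and 11.40 in control arrays. All 6 mimic arrays lay above all 6 controls, with a gap of 0.014 between the lowest mimic array, replicate 2, and the highest control, replicate 2. The means were 11.46 ± 0.05 in mimic arrays and 11.38 ± 0.03 in control arrays (SD, n = 6 each). The log2 difference was 0.09 with an SE of 0.04 and a 95% interval from 0.003 to 0.17, or 1.06-fold. After quantile normalization it was 0.063 with an SE of 0.039. With arrays centred on their medians the groups overlapped: mimic replicate 4, at 11.408, lay below control replicate 5, at 11.420.

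**Figure D1:**
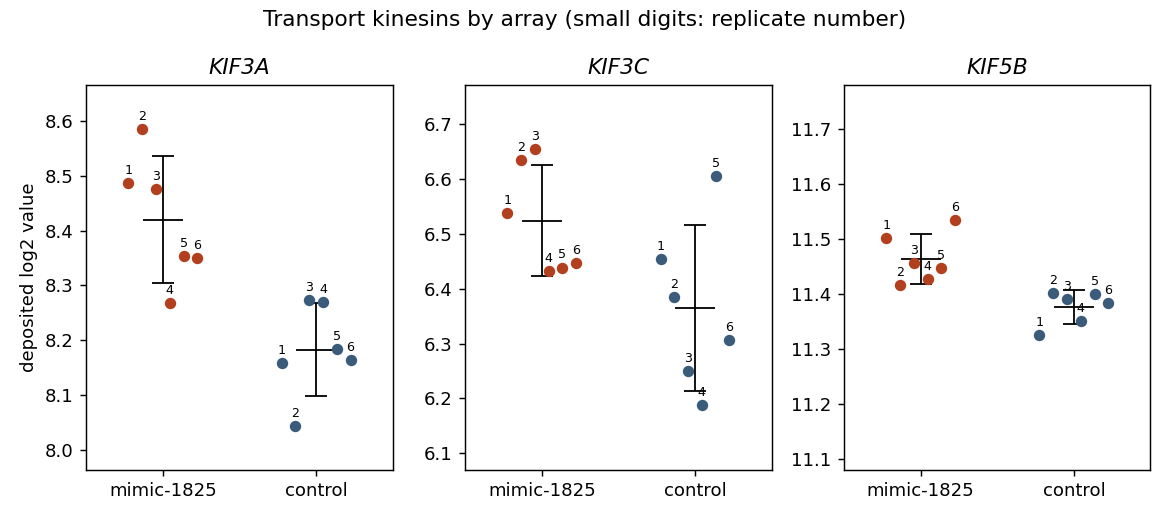
Deposited log2 values of KIF3A, KIF3C and KIF5B in each array, mimic-1825 left and control right; points are arrays with their replicate number, bars are the mean and SD of 6 arrays, and the 3 panels span the same range. KIF3A overlaps through mimic replicate 4, KIF3C overlaps through control replicates 1 and 5, and KIF5B has no overlap but the smallest shift.

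Set beside the whole array, the counts were as follows. Of the 3 genes, 0 passed limma's adjusted threshold over all clusters, where 0.0112% of clusters did, and 0 passed among the brightest 25% of clusters, where 1.81% did. All 3 had each of the 6 mimic arrays above the control mean, which held for 12% of 14884 named genes. In the deposited values only KIF5B had all mimic arrays above all controls. That held for 1.34% of named genes, and for 1.83% of those at or above the median. Since the genes were picked for this contrast, nothing is read from these shares. KIF5B's spread within groups, an SD of 0.04, was larger than that of only 19.0% of the 305 clusters within 0.25 of its brightness. KIF3A's, at 0.10, was larger than that of 71.1% of 1483 such clusters, and KIF3C's, at 0.13, than that of 46.9% of 2403.

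Of the kinesin-2 subunits, KIF3B, KIFAP3 and KIF17 were not among the chosen genes, and none passed the test. KIF3B, the usual partner of KIF3A, ran from 8.20 over 8.21 to 8.28 in mimic arrays, against 8.11, 8.19 and 8.21 in control arrays. Its means were 8.23 ± 0.03 in mimic arrays and 8.18 ± 0.04 in control arrays (SD, n = 6 each), a log2 difference of 0.05 (limma adjusted p = 0.709) whose interval ran from -0.04 to 0.13. The groups overlapped, although all 6 mimic arrays lay above the control mean. KIFAP3, which ties the motor to its cargo, averaged 9.54 ± 0.06 in mimic arrays and 9.51 ± 0.05 in control arrays, a log2 difference of 0.03 (limma adjusted p = 0.850). A second, dimmer KIFAP3 row, at a mean of 4.91, had 0.17 with an interval from -0.10 to 0.44, and the 2 rows were not compared by a test. KIF17, a kinesin-2 motor that works as a pair of identical chains, had -0.06 (limma adjusted p = 0.767). Of these 3 genes, 0 passed in either direction, and their median log2 difference was 0.03. It was 0.00024 over all named genes and 0.010 over those at or above the median, where these 3 lay. Whether KIF3A differed from KIF3B in its shift was not tested.

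Kinesin-1 chains other than KIF5B differed by -0.06 to 0.10 on the log2 scale, and none passed. KIF5C ran from 7.08 over 7.24 to 7.47 in mimic arrays, against 7.11, 7.15 and 7.27 in control arrays. Its log2 difference was 0.10 (limma adjusted p = 0.634), and the interval ran from -0.05 to 0.25. The groups overlapped, since only 4 of 6 mimic arrays exceeded the mean of controls. KIF5A, mutated in some families with ALS, had 0.08 (limma adjusted p = 0.793), and its interval ran from -0.12 to 0.28. Among the light chains, which recognise cargo and hold the motor inactive without it, KLC2 had -0.06, KLC3 had 0.05, KLC4 had 0.04 and KLC1 had 0.01. Of the 6 genes 5 had a higher mean after the mimic and 1 a lower, 0 passed limma's threshold, and 0 had an unadjusted p under 0.05. Their median log2 difference was 0.05. Among named genes at or above the median, 54.6% had a higher mean, and the median log2 difference was 0.010. The intervals of KIF5A and KIF5C held KIF5B's own 0.09, and the difference between the 3 heavy chains was not tested.

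**Figure D2:**
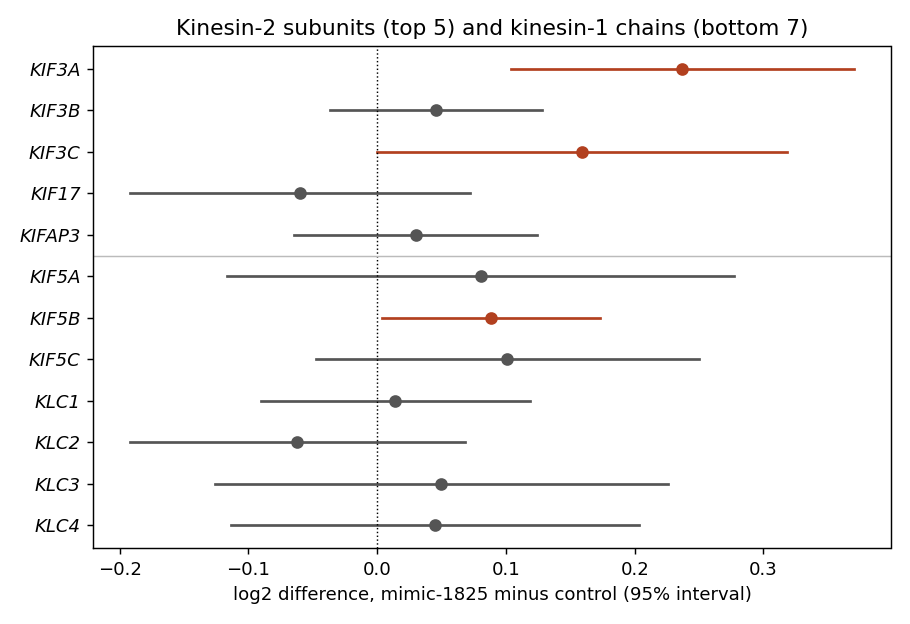
Log2 difference of mimic-1825 minus control for the 5 kinesin-2 subunits and 7 kinesin-1 chains; points are estimates and lines 95% intervals from limma, with KIF3A, KIF3C and KIF5B in red. The 9 other genes lie between -0.06 and 0.10, and each of their intervals spans 0.

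Within the mimic group KIF3A and KIF3C were uneven across arrays in a like way. KIF3A was 8.49, 8.58 and 8.48 in mimic replicates 1, 2 and 3, and 8.27, 8.35 and 8.35 in mimic replicates 4, 5 and 6. KIF3C was 6.54, 6.63 and 6.65 in mimic replicates 1, 2 and 3, and 6.43, 6.44 and 6.45 in mimic replicates 4, 5 and 6. KIF5B did not follow this order, with its highest values in mimic replicates 6 and 1, at 11.54 and 11.50. The first principal component of the clusters at or above the median, which held 18.7% of their variance, was 14.6, 28.6 and 13.1 in mimic replicates 1, 2 and 3. It was -2.30, -1.31 and 4.40 in mimic replicates 4, 5 and 6, and -20.8 to 2.40 in control arrays. The part of this array-wide pattern in the kinesin values was not tested. Without mimic replicate 2, the array farthest along it, the log2 difference of KIF3A was 0.20.

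**Figure D3:**
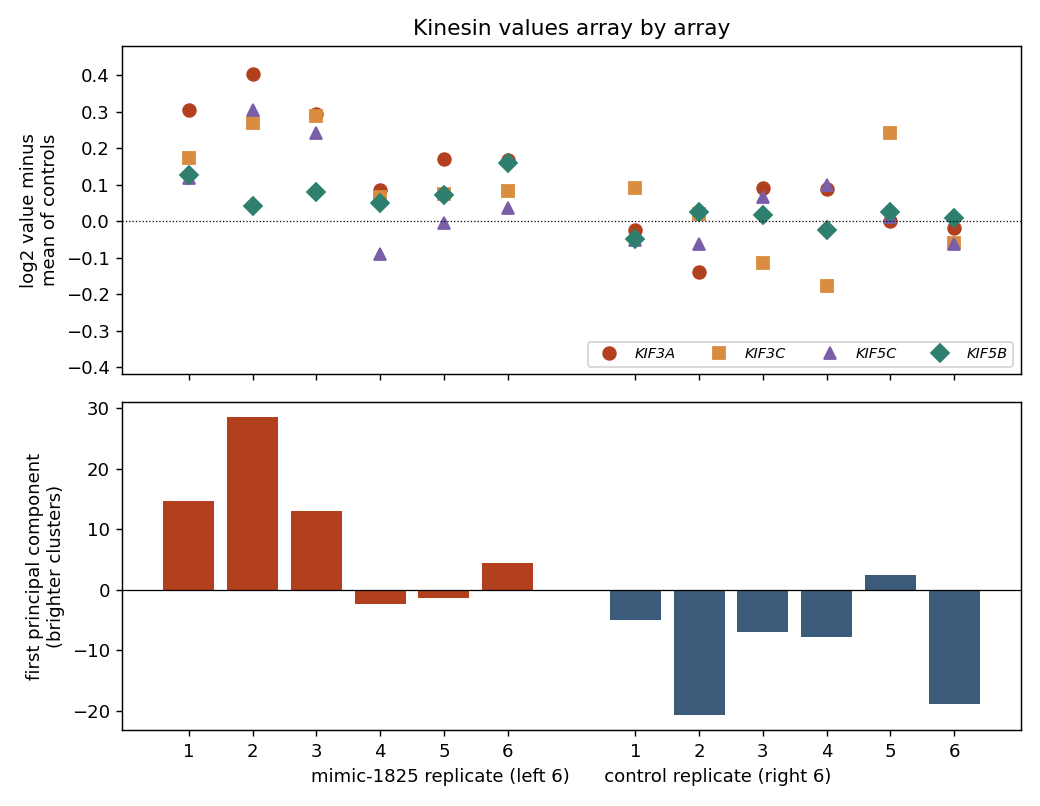
Top, log2 value of KIF3A, KIF3C, KIF5C and KIF5B in each array minus the gene's mean over controls; bottom, the array's position on the first principal component of the brighter clusters, with mimic-1825 replicates left and control replicates right. KIF3A, KIF3C and KIF5C are higher in mimic replicates 1, 2 and 3 than in 4, 5 and 6, where the component is also lower, and KIF5B is not.

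Variation between arrays of a group does not use the contrast by which the genes were chosen, so it could be tested. Over the 6 pairings of genes and groups, none passed after Benjamini-Hochberg adjustment. KIF3A and KIF3C had a Pearson r of 0.88 over the 6 mimic arrays (exact two-sided permutation p = 0.05, adjusted 0.3) and a Spearman rho of 0.77 (exact permutation p = 0.103, adjusted 0.617). Without the 2 arrays farthest from KIF3A's median r was 0.85, over 4 arrays, too few to reach the threshold. Over the 6 control arrays the same pair had r of -0.46 (exact permutation p = 0.390, adjusted 0.776) and rho of -0.54 (exact permutation p = 0.297, adjusted 0.892). Whether the 2 groups differed in this relation was not tested. KIF3A and KIF5B had r of -0.15 in mimic arrays and -0.26 in control arrays (exact permutation p = 0.776 and 0.636, each adjusted 0.776), with rho of -0.20 and -0.14 (exact permutation p = 0.714 and 0.803, each adjusted 0.919). KIF3C and KIF5B had r of -0.27 in mimic arrays and 0.18 in control arrays (exact permutation p = 0.582 and 0.714, each adjusted 0.776), with rho of 0.09 and 0.26 (exact permutation p = 0.919 and 0.658, each adjusted 0.919). Without the 2 arrays farthest from the median, the KIF3A and KIF3C relation in control arrays had r of -0.62. The KIF3A and KIF5B relation then had -0.15 in mimic arrays and -0.12 in control arrays. The KIF3C and KIF5B relation turned sign in both, to 0.44 in mimic arrays and -0.68 in control arrays.

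The genes whose array-to-array pattern was most like each kinesin were ranked by Pearson r of deviations from the group means over all 12 arrays, among 10131 other named genes at or above the median. These are descriptions, since all genes share the same arrays and were picked as the highest of many. The gene most like KIF3A was KIF5C, the neuronal kinesin-1 heavy chain, with r of 0.91. In mimic arrays KIF5C was 7.29, 7.47 and 7.41 in replicates 1, 2 and 3 and 7.08, 7.16 and 7.20 in replicates 4, 5 and 6, so replicates 1, 2 and 3 lay above the other 3 in KIF5C as in KIF3A. KIF5C was at rank 4 after quantile normalization and at rank 2 by Spearman correlation. Next for KIF3A were SIPA1L1, a synaptic GTPase-activating protein gene, with 0.91, and KBTBD2 and CDC14A, a phosphatase gene, with 0.90 each. NUP88, a nuclear pore gene, had 0.89. KIF3A's own partners were not near the top: KIF3B ranked 5750 with r of 0.03 and KIFAP3 ranked 5066 with r of 0.09.

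KIF3C was most like DEPTOR, an inhibitor of the mTOR kinase, with r of 0.94, and PRELID3A, with 0.93. CDK11A, a kinase gene with a near-identical copy (CDK11B), and IFITM1, an interferon-induced membrane protein gene, had 0.91 each. STAMBP, a deubiquitinase gene, had 0.91 as well. KIF5B was most like SEH1L, a nuclear pore gene, with 0.90, and TRUB1, a pseudouridine synthase gene, with 0.89. FGFR1OP2 had 0.87, TMOD3, which caps actin filaments, had 0.86 and STRAP had 0.85. The 5 genes of KIF3A, KIF3C and KIF5B share no name. Between KIF3A and KIF3C themselves r over the 12 deviations was 0.17, between KIF3A and KIF5B -0.18, and between KIF3C and KIF5B -0.04.

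**Figure D4:**
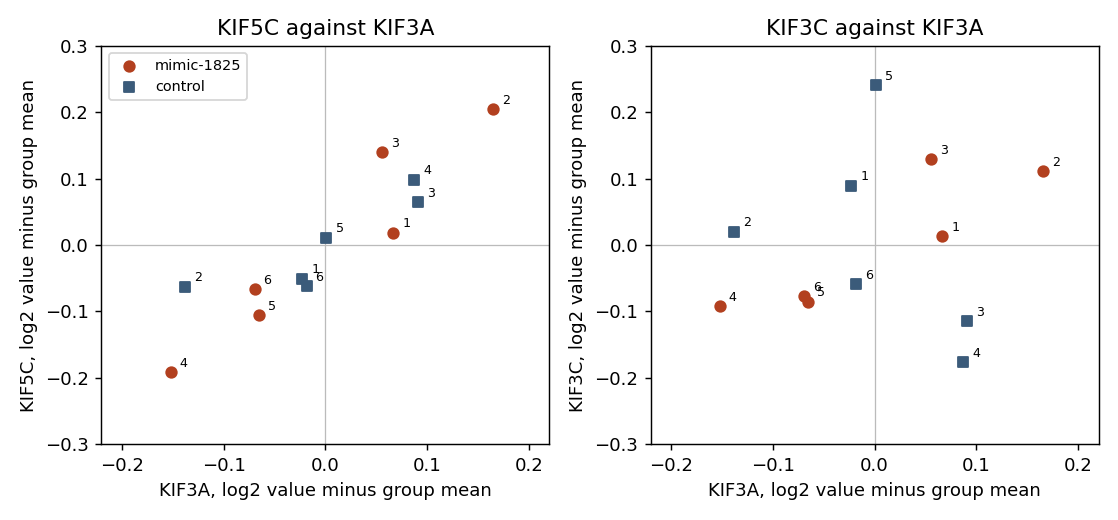
Deviation of KIF5C (left) and KIF3C (right) from its group mean against that of KIF3A, in log2 units; circles are mimic-1825 arrays, squares control arrays, and digits replicate numbers. The r of KIF5C with KIF3A is 0.91 over 12 arrays; that of KIF3C is 0.88 in mimic arrays and -0.46 in control arrays, where neither passed after adjustment and their difference was not tested.

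Genes on the cargo side of kinesin-2 lay mostly above 0. Of 23 intraflagellar transport genes 21 had a named row, 17 of them with a higher and 4 with a lower mean after the mimic, and 0 passed limma's threshold. Of named genes at or above the median 54.6% had a higher mean. The list had 4 higher and 0 lower genes at an unadjusted p under 0.05, where 8.36% of named genes at or above the median were higher and 3.77% lower. The median log2 difference of the list was 0.09, against 0.010 over those genes. IFT56, a subunit of the complex that carries cargo outward in cilia, averaged 8.46 ± 0.05 in mimic arrays and 8.32 ± 0.06 in control arrays, and its groups did not overlap (log2 difference 0.15, limma adjusted p = 0.292). The share of named genes at or above the median with all mimic arrays above all controls was 1.83%. WDR19, a subunit of the returning complex, had 0.23 (limma adjusted p = 0.339) and IFT80 had 0.19 (limma adjusted p = 0.366). With all 6 mimic arrays above the control mean in each of these 3, none passed.

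Kinesin-1 adaptors were divided. Of 24 genes 18 had a named row, 8 higher and 10 lower, with a median log2 difference of -0.04 and 0 past the threshold. RHOT1, which anchors the motor to mitochondria, averaged 9.60 ± 0.03 in mimic arrays and 9.46 ± 0.07 in control arrays, with no overlap (log2 difference 0.14, limma adjusted p = 0.301), as in 1.83% of named genes at or above the median with all mimic arrays higher. MAP7D1, of the family that recruits kinesin-1 to microtubules, had -0.12 (limma adjusted p = 0.456). RHOT1 and MAP7D1 were the 1 higher and 1 lower gene of the 18 at an unadjusted p under 0.05, against 8.36% higher and 3.77% lower of named genes at or above the median. CLSTN3, a calsyntenin gene, had -0.12 (limma adjusted p = 0.557). TRAK1 and TRAK2, the adaptors between RHOT1 and KIF5B, were not analysed here.

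Other motors gave the following counts. Beside them, 54.6% of named genes at or above the median had a higher mean after the mimic, with a median log2 difference of 0.010. Of 18 other kinesins 8 were higher and 10 lower, with 0 past the threshold, 0 at an unadjusted p under 0.05 and a median log2 difference of -0.01. In that list KIF19 had -0.18 and KIF13B -0.09, and KIF6, a row below the median, had 0.15 (limma adjusted p = 0.505, 0.604 and 0.605). Of 14 mitotic kinesins 13 had a named row, 12 higher and 1 lower, with a median of 0.08 and 0 past the threshold. KIF18A, which dampens chromosome movement, had 0.20 and KIF20B 0.18, and KIF11, which pushes spindle poles apart, had 0.10 (limma adjusted p = 0.240, 0.245 and 0.416). These 3 were higher at an unadjusted p under 0.05, where 8.36% of named genes at or above the median were. The groups did not overlap for KIF18A and KIF11, with all mimic arrays above all controls, by gaps of only 0.035 and 0.006. Such a separation was found in 1.83% of named genes at or above the median. Whether these gaps remained with arrays centred on their medians was not analysed. Of 27 genes of dynein, the motor towards minus ends, its activator dynactin and related genes, 14 had a named row. No dynein subunit, such as DYNC1H1, was among them, so the list covers dynactin and related genes only. Of the 14 genes 11 were higher and 3 lower, with a median of 0.08 and 0 past the threshold. ACTR10, a dynactin subunit, averaged 7.80 ± 0.11 in mimic arrays and 7.52 ± 0.16 in control arrays (log2 difference 0.28, limma adjusted p = 0.253). HOOK1 had 0.12 and DCTN6 had 0.10 (limma adjusted p = 0.505 and 0.509).

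**Figure D5:**
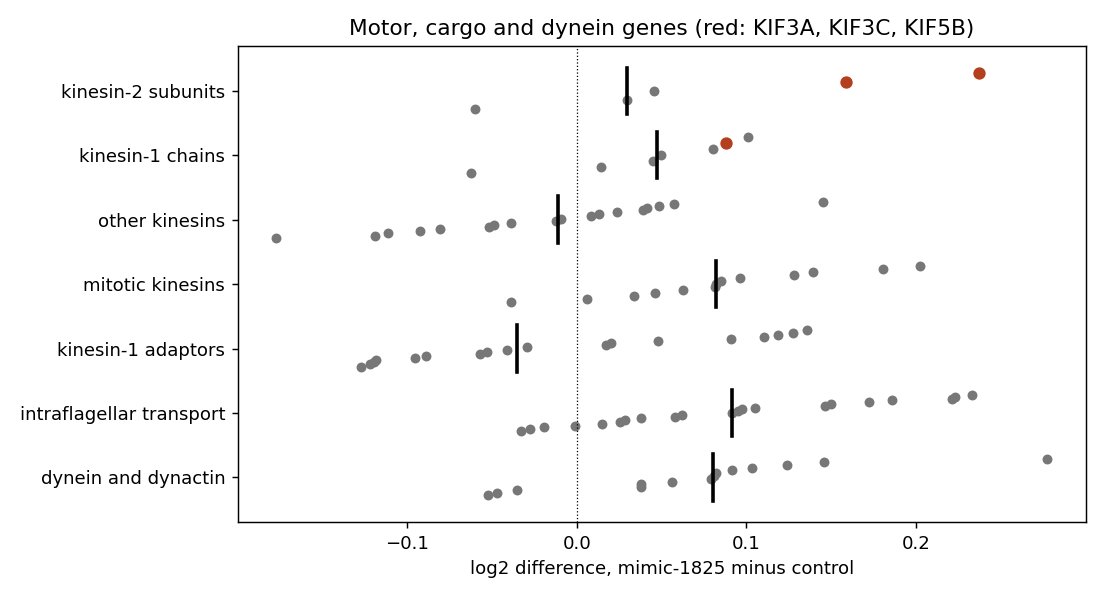
Log2 difference of mimic-1825 minus control for each named gene of 7 lists; grey points are genes, red points are KIF3A, KIF3C and KIF5B, and black bars are list medians without those 3. Medians run from -0.04 in kinesin-1 adaptors to 0.09 in intraflagellar transport, and all points lie within the range from -0.18 to 0.28.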

How the data were processed

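Gene expression in 12 samples of HEK293 cells was measured on Affymetrix arrays. The submitters' processing notes name Affymetrix Expression Console as the program with which the authors made the deposited log2 values. The labels add no version or settings. The log2 scale was read from the values, which run from 1.62 to 14.4. Signal over background is unknown, and the number of arrays limits the precision. Of 53617 clusters, 16098 carried 1 gene symbol in the platform annotation, and symbols were updated through RefSeq (GRCh38.p14). The labels name no build for the array, so no positions of its probes are printed, and the coordinates given are those of the RefSeq sequences.

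All clusters entered 1 linear model, mimic minus control, with neither trend nor block (limma 3.58.1 under R 4.3.3, functions lmFit and eBayes), judged by Benjamini-Hochberg adjusted p under 0.05, two-sided; it was tested on simulated data. A gene with several rows was represented by the one with the highest mean. Correlations used exact permutation over 720 pairings. Genes were named as follows: the 3 kinesins, all kinesin-2 and kinesin-1 genes, up to 3 genes with the smallest p of each other list, and the 5 genes most like each kinesin. IFT56 was listed as TTC26. The genes and lists were chosen with earlier results of these data known.

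Both groups carry replicate numbers 1 to 6. Deviations of same-numbered arrays correlated between -0.11 and 0.08, so the numbers were not used to pair arrays. Alternatives changed the normalization, filter, variance model, rows, block and arrays used.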

Additional observations from a re-analysis of the deposited data

Results flagged for a closer look

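In the 24 groups of 6 arrays formed by 12 kinesin-1 and kinesin-2 genes, 2 had an array set far from the rest, where chance gives about 1 in 20. KIF17 was highest in control replicate 3, at 6.21, against 5.96 to 6.00 in the other 5 control arrays. KIF3B was lowest in control replicate 6, at 8.11, against 8.18 to 8.21 in the other 5 control arrays. KIF3A, KIF3C and KIF5B had no such array in either group.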

How the results depend on the processing

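KIF3A, KIF3C and KIF5B had a higher mean after the mimic in all 63 values from alternative settings, 21 for each gene, and these moved by less than the SD within groups. The choice of the genes fixes this direction, so it is no sign of stability. Leaving out single arrays, the log2 difference ran from 0.20 to 0.27 in KIF3A, 0.12 to 0.21 in KIF3C and 0.07 to 0.10 in KIF5B. Under the other settings it ran from 0.21 to 0.25 in KIF3A, 0.14 to 0.17 in KIF3C and 0.06 to 0.10 in KIF5B. With the replicate block it was again 0.24, 0.16 and 0.09. The count of 6 calls over all clusters was 0 with the replicate block, with 1 cluster per named gene and at an adjusted p of 0.01. Restricting the fit to clusters at or above the median gave 13, of which 11 were higher after the mimic. In the brightest 25% of clusters, which hold KIF3A, KIF3C and KIF5B, 242 were called, of which 191 were higher. A trend with a robust prior gave 39, and leaving out single arrays gave 0 to 6. It was 0 without any of control replicates 1 to 3 or mimic replicates 1, 2, 4, 5 and 6, and 2 without control replicate 4 or mimic replicate 3. Called motor partner genes were 0 in every fit but that of the brightest 25%. There 2 mitotic kinesins, KIF18A and KIF20B, passed (limma adjusted p = 0.0445 and 0.0476). Cargo and dynactin genes had 0 in each fit. The fit of the brightest 25% tested 13405 clusters, and that with 1 cluster per named gene tested 14884 and called 0. The cause of the difference between these fits was not tested. The median log2 difference of the 40 motor partner genes was 0.036, and 0.016 after quantile normalization. For the 53 cargo and dynactin genes, with no dynein subunit among them, it was 0.056, and 0.031 after quantile normalization.

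The correlations within groups passed under no setting. With arrays centred on their medians, r of KIF3A and KIF5B turned to 0.36 and that of KIF3C and KIF5B to 0.25 in mimic arrays. Without the 2 arrays farthest from the median, KIF3C and KIF5B turned to 0.44 in mimic arrays and -0.68 in control arrays. Without single arrays, r of KIF3A and KIF3C ran from 0.83 to 0.97 in mimic arrays and from -0.74 to -0.24 in control arrays. KIF3A and KIF5B ran from -0.57 to 0.34 in mimic arrays and from -0.61 to 0.14 in control arrays. KIF3C and KIF5B ran from -0.55 to 0.020 in mimic arrays and from -0.23 to 0.70 in control arrays. Of the 5 genes most like each kinesin, quantile normalization shared 2 for KIF3A, 3 for KIF3C and 3 for KIF5B, and Spearman correlation shared 1, 3 and 3. The cause of these changes was not tested.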

Other observations

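The brighter row of KLC2, a kinesin-1 light chain, varied against KIF5B, its heavy-chain partner. Over the deviations of the 12 arrays from their group means r was -0.75, rank 10090 of 10131 genes, and -0.80 by Spearman correlation and -0.58 after quantile normalization. KLC2 was lowest of the mimic arrays in replicate 6, at 7.87, where KIF5B was highest, and lowest of the control arrays in replicate 2, at 7.94, where KIF5B was also highest. KIF5A likewise had r of -0.65 with KIF5B, while the light chain KLC1 had 0.42. For KLC1 it was 0.67 after quantile normalization and 0.26 by Spearman correlation. A second, dimmer KLC2 row, at a mean of 5.85, was not set against KIF5B. These pairs were singled out after their values were seen.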
